A study of Drosophila melanogaster with 27 samples.

Results

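The 7 genes described here carry the Drosophila JAK/STAT signal from cytokine to feedback inhibitor: upd1, upd2, upd3, dome, hop, Stat92E and Socs36E. They were chosen by name, with earlier results of these data known. All 7 were found in the count table of 15348 genes and passed the filter on low counts, which left 9814 genes. The Unpaired proteins (upd1, upd2, upd3) are secreted cytokines related to the interleukin-6 family. They bind Domeless (dome), a receptor of the gp130 kind, which activates the Janus kinase Hopscotch (hop), and Hopscotch phosphorylates the transcription factor Stat92E. Stat92E switches on its own brake, Socs36E, so that Socs36E mRNA is widely used as a readout of the pathway in imaginal discs, where the cytokines are known to be transcribed after wounding and in overgrowing, polarity-deficient tissue.

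The study sequenced RNA of imaginal discs, the larval epithelial sacs from which adult appendages form, taken from wandering third-instar larvae. In all 27 libraries the driver hh-Gal4, which is active in the posterior compartment of a disc only, expressed UAS-GFP, and each library pooled discs of 35 to 50 larvae, so every value mixes driver-expressing with other cells. Control discs also carried UAS-luc-RNAi, a hairpin against luciferase, and were dissected on day 5 (2 eye-antennal, 2 leg and 2 wing libraries). Tumour discs carried UAS-scrib-RNAi, a hairpin against the polarity gene scrib, with activated UAS-Ras[v12] and UAS-luci-RNAi, and were dissected on day 9 (replicate 1) or day 11 (replicate 2), again with 2 libraries for each of the 3 discs. The remaining libraries had the same scrib hairpin and Ras transgene, with a TRiP hairpin in place of the luciferase one: against CG6272 (also called Irbp18, a bZIP transcription factor; day 8, 2 eye-antennal and 2 leg libraries), Stat92E (day 8, 1 eye-antennal and 2 leg), tai (the coactivator taiman; day 10, 2 eye-antennal and 1 leg) and kay (the Fos subunit of AP-1; day 10, 1 eye-antennal). A further 4 libraries, 2 eye-antennal and 2 leg of day 7 to 8, are titled sd, for the DNA-binding partner of Yorkie. The genotype label of the eye-antennal ones names the kay hairpin instead, so they are called sd-titled here. Genotype and day of dissection cannot be told apart, except that tumours were taken on both of their days. The columns of the CG6272, Stat92E and kay libraries have names of another form than those of tumours, and whatever goes with that form cannot be told apart from these genotypes.

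The reads assigned to genes numbered 11.68 M to 16.01 M per library. Reads aligned to several places made up 15.8% to 22.9% of all counted lines in controls and 54.4% to 76.1% in tumours, 26.1% to 34.0% under the CG6272 hairpin and 43.0% to 61.5% in the other libraries, and the part of this difference in the results was not tested. Levels are given as CPM, the usual count normalised to library size, here after scaling by the trimmed mean of M values (TMM). Summed eye-antennal markers (eya, so, gl, ato, Optix, ey) stood at 154 CPM or more in the 12 eye-antennal libraries and at 118 CPM or less in the 15 others, and summed wing markers (vg, nub, Doc1, Doc2) at 165 CPM or more in the 4 wing libraries and at 124 CPM or less elsewhere. Leg markers (Dll, dac, Lim1, al, Scr, Ubx) overlapped between leg (421 to 1792 CPM) and eye-antennal libraries (396 to 634 CPM); the antenna expresses some of them. Replicate 2 of the control leg discs stood apart from the other controls in upd2 and Socs36E, and in Ilp8, a relaxin-like hormone of damaged discs, at 14.2 CPM against at most 0.295 CPM in the other 5. Values without it are given where it matters.

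All 3 cytokine genes were transcribed at low levels in control discs and at high levels in tumours of every disc. upd1 stood at 3.94 to 10.9 CPM in the 6 control libraries (median 6.13) and at 45.1 to 96.5 CPM in the 6 tumour libraries (median 81.4). upd2 went from 0.418 to 5.21 CPM (median 0.797) to 28.2 to 81.8 CPM (median 49.6). upd3 went from 0.227 to 2.44 CPM to 15.2 to 76.6 CPM. For none of the 3 genes did any control library reach the lowest tumour library. Of all tested genes, 26.5% had the tumour libraries all above or all below the controls. Averaged over discs, the log2 change was 3.61 ± 0.24 (SE) for upd1, 5.48 ± 0.37 for upd2 and 5.43 ± 0.30 for upd3 (edgeR quasi-likelihood test, n = 6 against 6, adjusted p = 1.82e-08, 1.86e-08 and 2.57e-09). With that control leg library left out, the change of upd2 was 5.87 (adjusted p = 4.40e-08). In bulk discs, more cells that transcribe a cytokine and more mRNA per cell cannot be told apart. Summed markers of hemocytes, the blood cells that are another known source of Unpaired cytokines, were at 21.9 to 128 CPM in controls and 153 to 327 CPM in tumours, with reads for 6 of 6 markers in every library and none of the markers at 0. Their part in the cytokine levels was not tested.

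Because upd2 and upd3 had larger log2 changes than upd1, the makeup of the cytokine mRNA differed between controls and tumours. In controls upd1 made up 74.4% ± 10.3 (SD, n = 6) of the summed CPM of the 3 genes, and the sum was 9.19 ± 4.97 CPM. In tumours upd1 made up 44.5% ± 8.52, upd2 28.3% ± 4.91 and upd3 27.2% ± 7.55 of a sum of 183 ± 62.2 CPM (n = 6). The ranges of the upd1 share, 58.8% to 85.2% and 31.5% to 55.7%, did not overlap. These shares are not per length, and the upd1 exons are the longest of the 3.

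The receptor gene rose, whereas the kinase and the transcription factor genes fell slightly. dome was at 188 to 259 CPM in controls (mean 223 ± 27.2, SD) and at 267 to 333 CPM in tumours (mean 288 ± 23.2). Every tumour was above every control, where 26.5% of all tested genes were apart in either direction. The log2 change of dome was 0.37 ± 0.06 (SE; edgeR quasi-likelihood test, adjusted p = 0.000125). hop had a mean of 122 CPM in controls and 105 CPM in tumours, a change of -0.21 ± 0.06 (edgeR, adjusted p = 0.00548). Stat92E had a mean of 259 CPM in controls and 227 CPM in tumours, a change of -0.19 ± 0.05 (edgeR, adjusted p = 0.00667). The hop and Stat92E libraries of the genotypes overlapped, and the Stat92E call ended with the dissection as a random block (limma-voom, adjusted p = 0.0540) or with the compared libraries alone (edgeR, 0.0501), in a range over its alternatives of 0.000550 to 0.0540.

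Socs36E, whose protein inhibits the receptor complex, rose in every disc. Its level was 79.4 to 123 CPM in the controls (median 89.5) and 404 to 674 CPM in the tumours (median 470.0), a log2 change of 2.47 ± 0.11 (SE; edgeR quasi-likelihood test, adjusted p = 4.38e-10). The lowest tumour library was thus far above the highest control, which was replicate 2 of the leg discs, where 26.5% of all tested genes were apart in either direction. Without that library the change was 2.53 (edgeR, adjusted p = 3.06e-09). All 7 genes passed the threshold of 0.05 in the comparison averaged over discs, 5 higher and 2 lower, where 52.8% of the 9814 tested genes did (28.3% higher and 24.5% lower). Their median log2 change was 2.47, beside 0.03 for all tested genes.

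**Figure D1:**
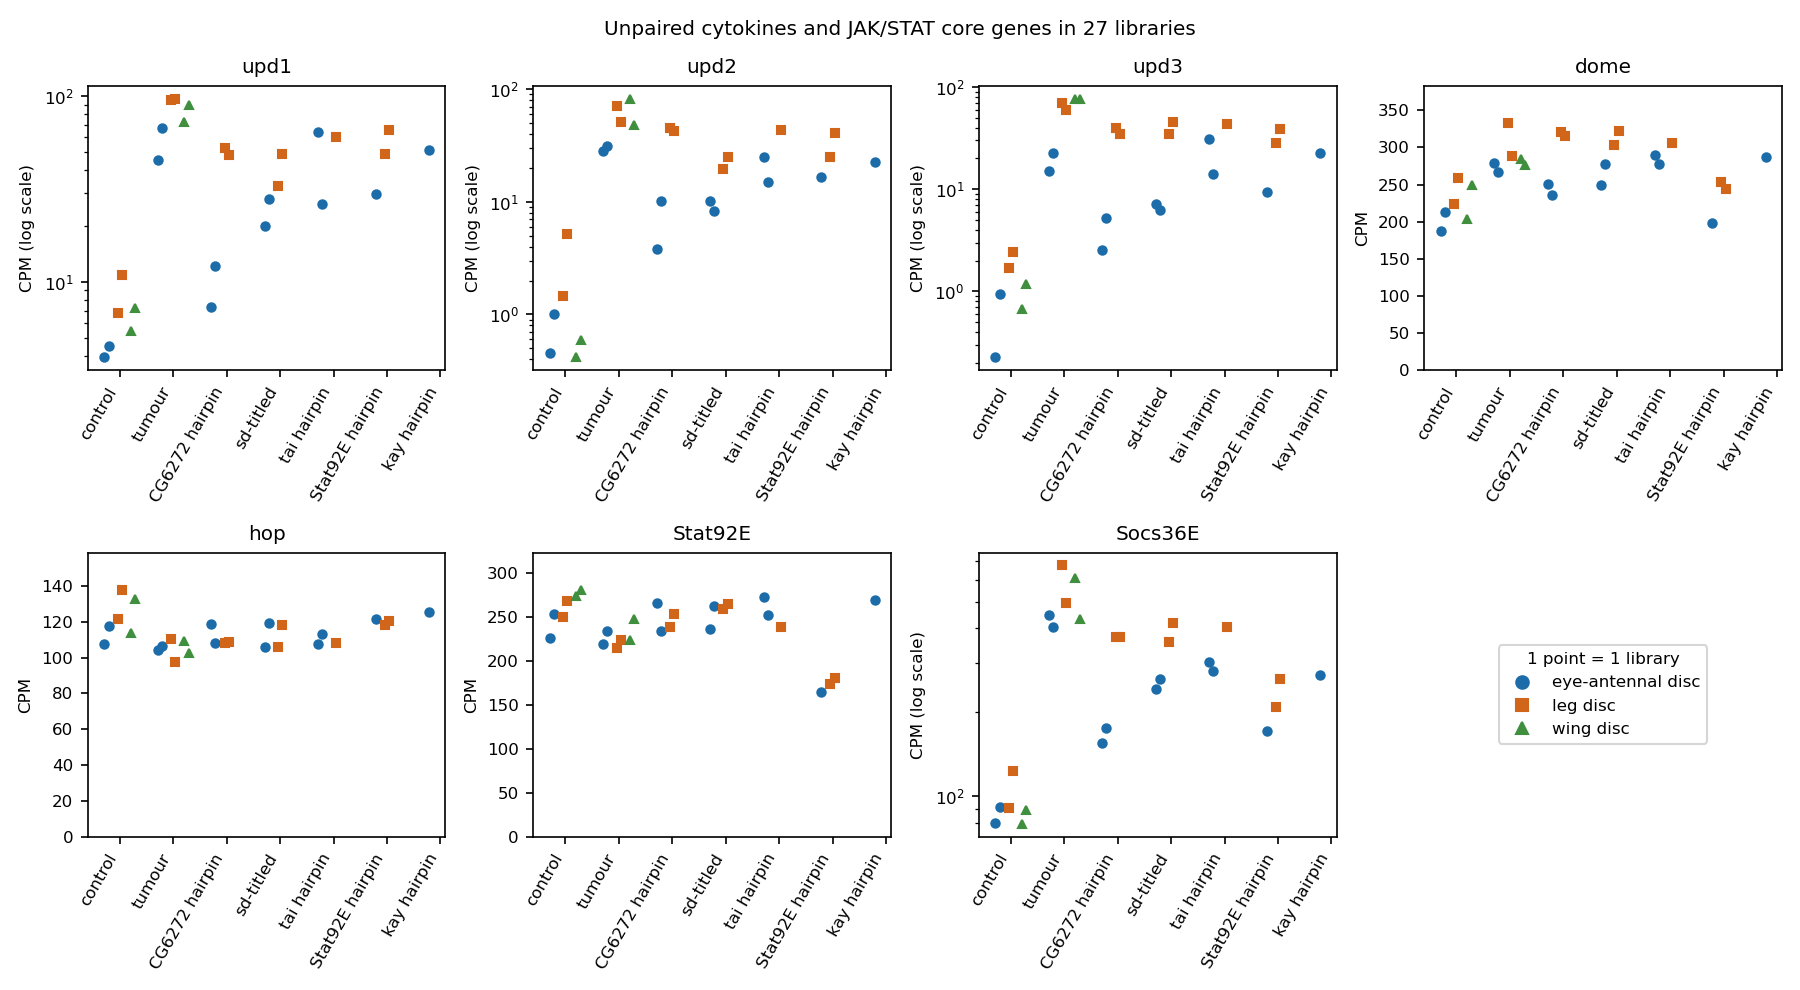
Level of each of the 7 genes in CPM in 27 libraries, by genotype on the x axis (1 point is 1 library, colour and shape give the disc; the 3 cytokine genes and Socs36E on log axes). The 6 tumour libraries lie above the 6 control libraries for upd1, upd2, upd3, dome and Socs36E, and the 3 Stat92E-hairpin libraries are the lowest for Stat92E. Tumours and controls did not overlap for 26.5% of all tested genes.

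Levels can be compared between genes only per length of exon. The exon lengths came from the reference annotation, which is of another genome build than the counts, so levels per length are approximate. In controls Stat92E had a mean of 49.7 CPM per kb and dome 45.7, with overlapping libraries, followed by Socs36E with 26.2 and hop with 24.1, which also overlapped. upd1 (2.07 CPM per kb), upd2 (0.770) and upd3 (0.536) followed, all below every hop value and overlapping with their neighbour in this order. In tumours Socs36E led with 146 CPM per kb (115.4 to 192), above every library of dome (59.0, from 54.7 to 68.3), and dome lay above every library of Stat92E (43.6, from 41.3 to 47.6). upd2 (26.1 CPM per kb), upd1 (24.9), upd3 (24.1) and hop (20.8, from 19.3 to 21.8) overlapped. Over the tumours of all discs, the cytokine mRNAs thus overlapped with the kinase mRNA per length. The lowest libraries of upd1 (14.4 CPM per kb), upd2 (14.2) and upd3 (6.83) were below every hop library. Each was replicate 1 of the eye-antennal tumours, and upd2 and upd3 were below hop in both eye-antennal tumour libraries.

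The change was measured in each disc separately, with 2 libraries against 2. In eye-antennal discs upd1 went from 3.94 and 4.54 CPM to 45.1 and 67.7 CPM, in leg discs from 6.82 and 10.9 to 95.1 and 96.5, and in wing discs from 5.43 and 7.24 to 72.9 and 89.9. The log2 changes of upd1 in the 3 discs were 3.73 ± 0.43, 3.43 ± 0.41 and 3.68 ± 0.42 (SE). For upd2 they were 5.30 ± 0.64 in eye-antennal, 4.17 ± 0.56 in leg and 6.97 ± 0.69 in wing discs. For upd3 they were 4.97 ± 0.54, 4.97 ± 0.48 and 6.34 ± 0.53. Socs36E rose by a log2 change of 2.32 ± 0.19 in eye-antennal, 2.45 ± 0.20 in leg and 2.63 ± 0.20 in wing discs. By edgeR's test, 5 of the 7 genes passed in eye-antennal discs (29.2% of all tested genes), 7 in leg discs (38.3%) and 5 in wing discs (30.4%); the 5 were the cytokines, dome and Socs36E. Several of the calls of dome, hop and Stat92E in single discs rested on single libraries. The dome call ended without replicate 1 of the controls in eye-antennal discs (edgeR, adjusted p = 0.0752), without replicate 1 of the controls (0.152) or tumours (0.138) in leg discs, and without replicate 1 of the controls (0.349) or either tumour replicate (0.155 and 0.0858) in wing discs. In leg discs the hop call ended without replicate 2 of the controls (0.157) or tumours (0.121), and that of Stat92E without any 1 of the 4 libraries (0.0683 to 0.244). In wing discs Stat92E had a log2 change of -0.23 ± 0.09 (SE; edgeR, adjusted p = 0.0580), and passed without replicate 2 of the tumours (0.0422).

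The change itself was not shown to differ among discs for any of the 7 genes. In the joint test of that difference 0 of 7 passed (edgeR; 3.28% of all genes), 1 had an unadjusted p under 0.05, and the DESeq2 test called 1 and limma-voom 0. The gene in both cases was upd2 (adjusted p = 0.179 by edgeR and 0.0324 by DESeq2, in a range over alternatives of 0.0324 to 0.807).

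Among the discs of a single genotype, 1 of the 7 genes passed in controls and 1 in tumours, and both calls ended without single libraries. Among controls upd2 was at 1.47 and 5.21 CPM in leg discs, 0.454 and 1.00 in eye-antennal discs and 0.418 and 0.591 in wing discs. It was the 1 gene of the 7 that differed among control discs (edgeR, adjusted p = 0.0241; 11.8% of all genes), and it did not pass without replicate 2 of the leg discs (0.440), replicate 1 of the eye-antennal discs (0.0635) or either wing library (0.0885 and 0.0681). With the replicate number within a genotype as a block, which takes the discs of 1 number as 1 dissection, upd1 (0.0330) and dome (0.0274) also passed among the control discs. Among tumours upd3 was at 15.2 and 22.9 CPM in eye-antennal discs, below the 60.2 and 70.1 CPM of leg discs and the 76.0 and 76.6 CPM of wing discs. Here upd3 was the 1 gene that passed (edgeR, adjusted p = 0.0127; 8.23% of all genes), though not without replicate 1 of the eye-antennal discs (0.127). With the replicate block upd1 (0.0415) and Socs36E (0.0391) passed as well. Socs36E was at 447 and 404 CPM in eye-antennal, 674 and 493 CPM in leg and 610 and 432 CPM in wing tumours.

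Tumours of day 11 and day 9 were compared over the 3 discs. All day 9 libraries were replicate 1 and all day 11 libraries replicate 2, so day and dissection cannot be told apart. If the discs of 1 number were 1 dissection, the 3 discs are not independent replicates of a day. Socs36E was lower on day 11 in each disc, with a log2 change of -0.36 ± 0.12 (SE) that did not pass (edgeR, adjusted p = 0.0621). By the DESeq2 test it passed (0.0210, in a range over alternatives of 0.0210 to 0.318). Of the 7 genes 0 passed by edgeR (12.3% of all genes), 1 had an unadjusted p under 0.05, and limma-voom called 0. The cytokine genes had changes of 0.30 ± 0.29 (upd1), -0.37 ± 0.38 (upd2) and 0.11 ± 0.32 (upd3).

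Under the hairpin against CG6272 all 3 cytokine mRNAs and Socs36E were lower than in tumours. The targeted gene, Irbp18, had a mean of 10.8 CPM, against 65.4 CPM in tumours of the same discs. upd1 stood at 7.35 and 12.2 CPM in the eye-antennal and at 52.4 and 48.2 CPM in the leg libraries. Against tumours of the same discs its log2 change was -1.73 ± 0.27 (SE; edgeR quasi-likelihood test, n = 4 against 4, adjusted p = 0.000584). upd2 was at 3.83 and 10.2 CPM in eye-antennal and 45.6 and 42.1 CPM in leg libraries, a change of -1.27 ± 0.35 (edgeR, adjusted p = 0.0242). upd3 was at 2.53 and 5.28 CPM in eye-antennal and 39.9 and 34.5 CPM in leg libraries, a change of -1.55 ± 0.29 (edgeR, adjusted p = 0.00260). Socs36E was at 154 and 175 CPM in eye-antennal and 373 and 372 CPM in leg libraries, a change of -1.01 ± 0.13 (edgeR, adjusted p = 0.000129). Every hairpin library was below every tumour library for Socs36E, where 12.9% of all genes were apart in either direction. For the cytokines this held only within each disc, where 52.2% (eye-antennal) and 45.3% (leg) of all genes were apart. In all 4 of 7 genes passed, beside 14.2% of all tested genes. dome, hop and Stat92E did not (the lowest adjusted p of the 3 was 0.125, for Stat92E). The upd2 call ended without any 1 of 5 single libraries (both replicate 1 libraries of the tumours, replicate 1 of the eye-antennal and both of the leg hairpin discs; range over leave-one-out fits 0.0109 to 0.0959) and with the compared libraries alone (0.0561).

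The 2 discs were then read separately. In a comparison added after the data were seen, the eye-antennal log2 changes were -2.53 ± 0.39 (SE) for upd1, -2.08 ± 0.51 for upd2, -2.29 ± 0.43 for upd3 and -1.37 ± 0.19 for Socs36E, and these 4 genes passed (edgeR, adjusted p = 0.00139, 0.0232, 0.00531 and 0.000520; 7.06% of all genes). In leg discs the changes were -0.93 ± 0.36, -0.47 ± 0.47, -0.81 ± 0.39 and -0.65 ± 0.19, and 0 of 7 genes passed by edgeR (4.26% of all genes), 2 had an unadjusted p under 0.05, DESeq2 called 1 and limma-voom 0. The upd2 and upd3 calls of the eye-antennal discs ended without replicate 1 of that hairpin (0.203 and 0.0789), and that of upd2 also without either eye-antennal tumour (0.0740 and 0.0729). In leg discs Socs36E passed without replicate 2 of the tumours (0.0220). In the test of the difference between the discs, 0 of 7 genes and 0 of all genes (0%) passed by edgeR, although the 3 cytokines and Socs36E, 4 genes, had an unadjusted p under 0.05; DESeq2 and limma-voom called 0 of the 7. With the dissection as a replicate block, upd1 (difference of -1.60, adjusted p = 0.0323) and Socs36E (-0.74, 0.0490) passed. Summed hemocyte markers were at 222 and 602 CPM in the eye-antennal and 254 and 491 CPM in the leg libraries of this hairpin, and so not below those of tumours. Muscle markers (Mlc2 and up) summed to 583 and 344 CPM in the eye-antennal and to 257 and 45.3 CPM in the leg libraries, against 52.1 to 80.9 CPM in tumours of these discs. Fat body markers, 6 of 6 with reads, summed to 1493 and 2700 CPM in the eye-antennal and to 157 and 1450 CPM in the leg libraries, against 28.2 to 261 CPM in tumours. The part of these tissues in the changes was not tested.

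The sd-titled libraries also held less cytokine mRNA than tumours. upd1 was at 20.1 and 27.8 CPM in eye-antennal and at 32.8 and 48.6 CPM in leg libraries, a log2 change of -1.23 ± 0.26 (SE; edgeR quasi-likelihood test, n = 4 against 4, adjusted p = 0.00460). upd2 was at 10.1 and 8.33 CPM in eye-antennal and 19.6 and 25.0 CPM in leg libraries, a change of -1.56 ± 0.35 (edgeR, adjusted p = 0.00628). All 4 libraries were below all tumours, where 16.8% of all genes were apart in either direction. upd3 was at 7.22 and 6.21 CPM in eye-antennal and 34.4 and 45.9 CPM in leg libraries, a change of -1.10 ± 0.28 (edgeR, adjusted p = 0.0137). Socs36E had 242 and 263 CPM in eye-antennal and 356 and 418 CPM in leg libraries, a change of -0.67 ± 0.13 (edgeR, adjusted p = 0.00256). Stat92E was slightly higher, with a mean of 256 CPM against 223 CPM and a change of 0.20 ± 0.06 (edgeR, adjusted p = 0.0362). In all 5 of 7 genes passed, beside 21.3% of all genes. sd mRNA itself was at a mean of 249 CPM, against 268 CPM in tumours (edgeR, adjusted p = 0.565), and kay at 191 against 391 CPM (0.00894). These means pool the eye-antennal libraries, whose genotype label names kay, with the leg ones. They do not settle which hairpin the libraries of either disc carried. With the leg libraries alone, whose title and genotype label both name sd, upd1 (-1.24, adjusted p = 0.0352) and Socs36E (-0.59, 0.0432) passed and upd2 (-1.44, 0.0609), upd3 (-0.70, 0.259) and Stat92E (0.26, 0.0661) did not. The upd3 call ended also without replicate 2 of the eye-antennal (0.0546) or replicate 1 of the leg sd-titled libraries (0.0640), and that of Stat92E without those (0.137 and 0.0583), replicate 2 of the leg ones (0.0964) or replicate 1 of the eye-antennal (0.134) or leg tumours (0.110). Summed hemocyte markers were at 39.6 to 152 CPM in these 4 libraries, below the 153 to 327 CPM of tumours, with reads for 6 of 6 markers, and their part in the cytokine values was not tested. Replicate 2 of the eye-antennal sd-titled libraries stood apart with 11230 CPM of summed fat body markers, against 25.1 to 232 CPM in the other 3 and 28.2 to 261 CPM in tumours. Without it upd1 (adjusted p = 0.0110 by edgeR), upd2 (0.0303) and Socs36E (0.00885) passed, 3 of the 7 genes. A difference between eye-antennal and leg discs was tested, and 0 of 7 genes passed by edgeR, DESeq2 or limma-voom or had an unadjusted p under 0.05 (0.988% of all genes).

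With the Stat92E hairpin the target, the receptor and the feedback gene were lower and passed. The cytokine genes were lower as well but did not pass by edgeR. Stat92E was at 164 CPM in the eye-antennal and 174 and 180 CPM in the leg libraries, against 215 to 234 CPM in tumours of these discs, a log2 change of -0.39 ± 0.07 (SE; edgeR quasi-likelihood test, n = 3 against 4, adjusted p = 0.00320). dome was at 198, 253 and 243 CPM, all below every tumour library, a change of -0.39 ± 0.09 (edgeR, adjusted p = 0.00818). Socs36E was at 171, 209 and 262 CPM, also below every tumour library, a change of -1.31 ± 0.15 (edgeR, adjusted p = 0.000138). These 3 of the 7 genes passed, beside 13.3% of all genes. The hairpin libraries were apart from tumours of the same discs, in either direction, for 20.5% of all genes. They were above those tumours in hop, at 122, 118 and 121 CPM against 97.4 to 110 CPM, and hop did not pass by edgeR. upd1 (29.6, 48.7 and 65.7 CPM) had a change of -0.84 ± 0.30 (adjusted p = 0.0755 by edgeR), upd2 (16.5, 24.9 and 40.8 CPM) one of -0.86 ± 0.39 (0.157) and upd3 (9.33, 28.7 and 38.6 CPM) one of -0.99 ± 0.33 (0.0578). All 7 genes had an unadjusted p under 0.05, and upd1 (0.0325) and upd3 (0.0147) passed by the DESeq2 test, upd3 (0.0361) also by limma-voom. Summed hemocyte markers were at 172 CPM in the eye-antennal and at 45.9 and 135 CPM in the leg libraries, with reads for 6 of 6 markers, those of the fat body were at 438, 38.2 and 91.2 CPM in the same order, and the part of either in these values was not tested. The dome call ended without the eye-antennal library of the hairpin (0.0648), and it ended, like that of Stat92E (0.0760), with the compared libraries alone (0.0888).

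**Figure D2:**
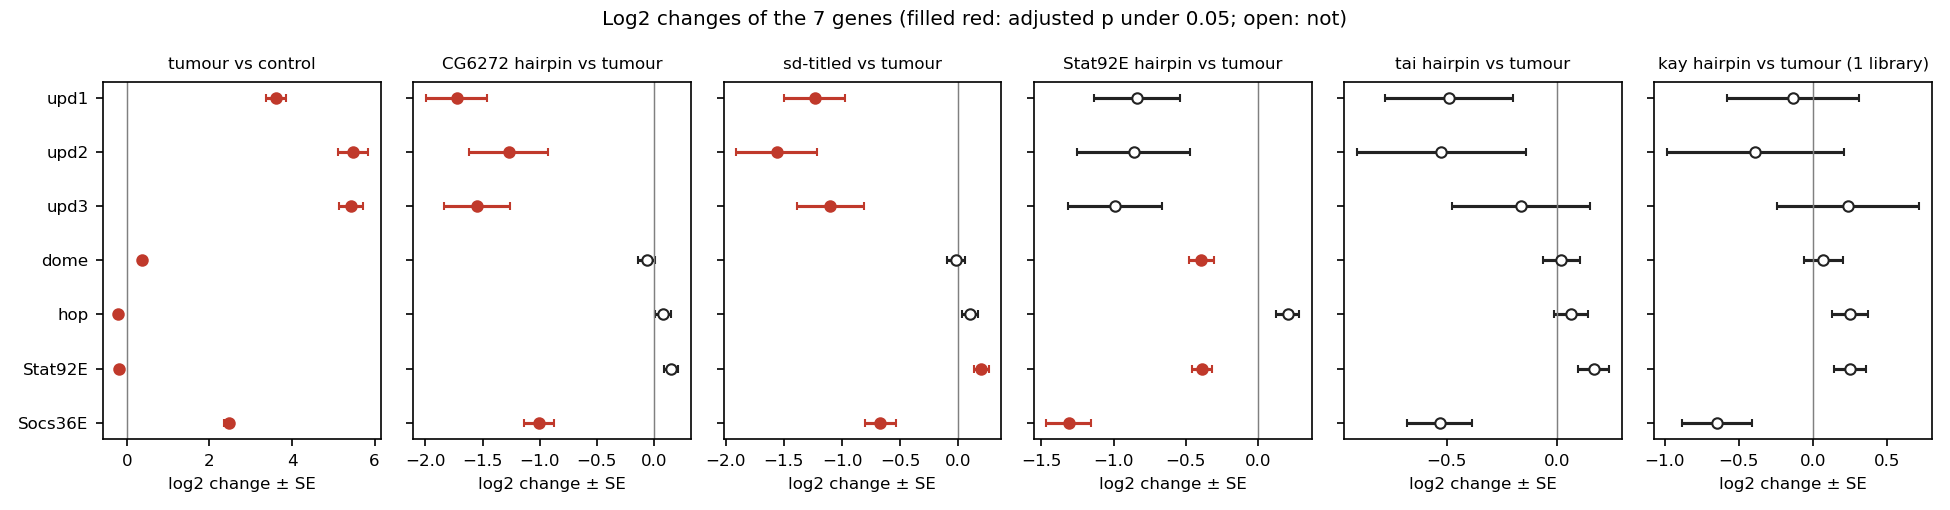
Log2 change with its SE of the 7 genes for tumour against control and for each hairpin against tumours of the same discs, from edgeR (each panel has its own x scale; filled red points passed the adjusted threshold of 0.05, open points did not). The cytokines and Socs36E fell and passed under the CG6272 hairpin and in the sd-titled libraries. Under the Stat92E hairpin dome, Stat92E and Socs36E fell and passed, and the cytokines were lower as well but did not pass.

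The tai and kay hairpins left the 7 genes without a call. Under the tai hairpin upd1 was at 64.4 and 26.4 CPM in eye-antennal and 60.2 CPM in leg discs, and upd2 was at 25.0, 14.8 and 43.4 CPM in the same order. upd3 was at 31.2, 14.2 and 43.5 CPM, and Socs36E at 303, 281 and 407 CPM. For each of these genes at least 1 library lay within the range of the tumours of both discs. Within each disc, every library was below every tumour library for upd2 and Socs36E. In tumours upd2 was at 28.2 and 30.9 CPM in eye-antennal and 70.2 and 50.9 CPM in leg discs. Socs36E was at 447 and 404 CPM in eye-antennal and 674 and 493 CPM in leg tumours. The share of all genes apart within each disc was not computed for this hairpin. Under the CG6272 hairpin, with 2 libraries against 2, it was 52.2% in eye-antennal and 45.3% in leg discs. In all 0 of 7 genes passed by edgeR (2.72% of all genes), 2 had an unadjusted p under 0.05, and DESeq2 called 1 and limma-voom 0. Socs36E had a log2 change of -0.53 ± 0.15 (SE; edgeR, adjusted p = 0.0711; range over alternatives 0.0114 to 0.289), and passed by the DESeq2 test (0.0114) and without replicate 2 of the tumour leg discs (edgeR, 0.0289). In the single kay-hairpin library upd1 was at 51.4 CPM, upd2 at 22.6, upd3 at 22.4 and Socs36E at 272 CPM. Assuming that this library varies like the others, 0 of 7 passed by edgeR, DESeq2 or limma-voom (0.183% of all genes by edgeR), and 2 had an unadjusted p under 0.05. tai mRNA was at a mean of 156 CPM under its hairpin against 187 CPM in tumours (edgeR, adjusted p = 0.348), and kay at 131 CPM under its hairpin against 338 CPM (0.221).

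Averaged over eye-antennal and leg discs, the cytokine mRNAs and Socs36E were above control discs of the same kind under the CG6272, tai and Stat92E hairpins and in the sd-titled libraries. The kay hairpin, with 1 library, was not compared with controls. Under CG6272 the log2 changes were 1.85 ± 0.29 (SE) for upd1, 3.46 ± 0.42 for upd2, 3.43 ± 0.36 for upd3 and 1.38 ± 0.13 for Socs36E (edgeR, adjusted p = 0.000138, 1.55e-05, 4.14e-06 and 1.94e-06). For upd1 under the Stat92E hairpin the change was 2.74 ± 0.31, for upd2 3.87 ± 0.44 and for upd3 3.98 ± 0.37, whereas Socs36E was up by 1.08 ± 0.14 (edgeR, adjusted p = 1.75e-05, 1.95e-05, 3.41e-06 and 7.72e-05). In each comparison 5 of the 7 genes passed: the cytokines, dome and Socs36E for CG6272 (43.7% of all genes), sd-titled (31.3%) and tai (34.1%), and for Stat92E (26.7%) the cytokines, Socs36E and, lower, Stat92E. dome, higher than control under the other hairpins, had an adjusted p of 0.931 under the Stat92E hairpin (mean 231 CPM). These comparisons share their control libraries, and those above share the tumour libraries.

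The CG6272 and Stat92E hairpins, both of day 8, were also set against each other. dome (-0.33 ± 0.09, SE) and Stat92E (-0.54 ± 0.07) were lower under the Stat92E hairpin (edgeR, adjusted p = 0.0418 and 0.000748), 2 of 7 genes beside 4.89% of all genes. The dome call ended without any single library of these groups (range 0.0695 to 0.105). upd1 had a change of 0.89 ± 0.29 (edgeR, 0.0923) and Socs36E one of -0.30 ± 0.15 (0.239). Of the 7 genes 3 (upd1, dome and Stat92E) had an unadjusted p under 0.05, and DESeq2 called 3 and limma-voom 2.

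Across libraries Socs36E was high where the cytokines were high, and low for its cytokine sum in the Stat92E-hairpin libraries. Over the 21 libraries other than controls, the Pearson correlation of log2 CPM with Socs36E was 0.78 for upd1, 0.82 for upd2 and 0.81 for upd3. The cytokines correlated with each other at 0.92 (upd1 and upd2; upd1 and upd3) and 0.94 (upd2 and upd3), and dome with Socs36E at 0.75. Libraries share disc, dissection and scaling, and these values are descriptions. Paired by summed cytokine mRNA after the values were seen, the eye-antennal Stat92E-hairpin library (55.4 CPM) had 171 CPM of Socs36E, and replicate 2 of the eye-antennal tai hairpin (55.4 CPM) had 281 CPM. The leg libraries of the Stat92E hairpin, with 102 and 145 CPM of summed cytokines, had 209 and 262 CPM of Socs36E. The leg library of the tai hairpin (147 CPM) had 407 CPM, and the kay-hairpin library (96.4 CPM) 272 CPM.

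**Figure D3:**
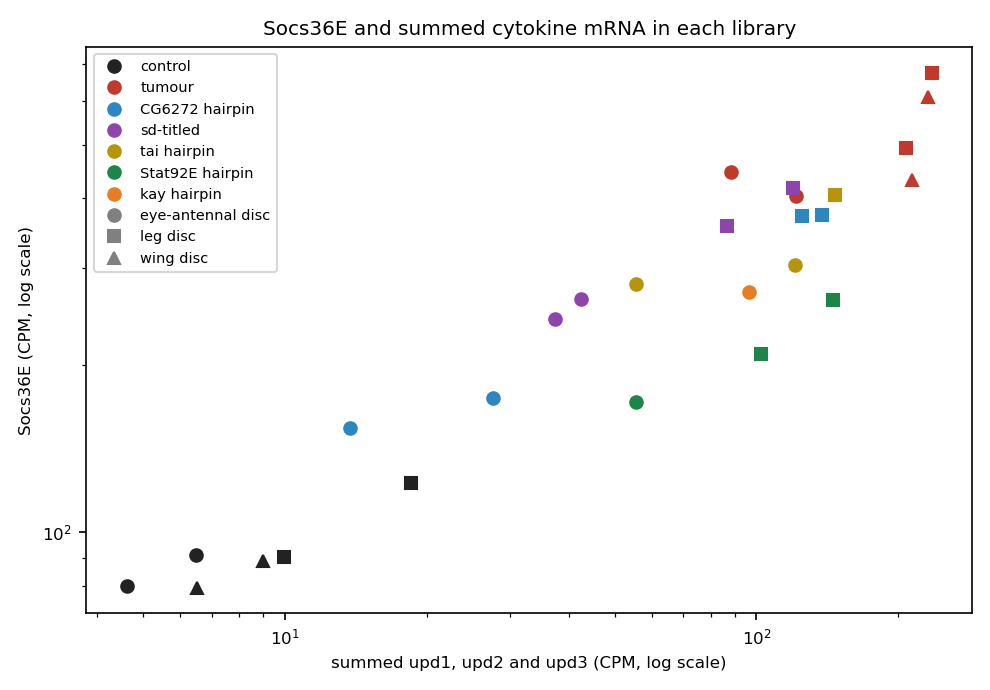
Socs36E against the summed upd1, upd2 and upd3 level of each of 27 libraries, in CPM on log axes (colour gives the genotype, shape the disc). Controls lie at the lower left, tumours at the upper right, and the 3 Stat92E-hairpin libraries at 171 to 262 CPM of Socs36E lie below other tumour-bearing libraries of like cytokine sum.

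Other regulators of the pathway were read from a list of 9 genes, 8 of which were tested. In tumours 4 rose and 3 fell, where 28.3% of all tested genes were higher and 24.5% lower. The list's median log2 change was 0.37 beside 0.03 for all tested genes. apt, a nuclear protein known to restrain STAT in border cells, rose from 19.4 to 27.9 CPM in controls to 75.0 to 261 CPM in tumours, by 2.43 ± 0.11 (SE; edgeR, adjusted p = 4.37e-10). It is the gene of this list whose rise differed among discs (0.00335), with changes of 1.60 in eye-antennal, 3.44 in leg and 2.25 in wing discs. ken, a repressor of some Stat92E targets, rose by 1.77 ± 0.11, Socs44A, another SOCS-family gene, by 0.85 ± 0.08 and Stam, an endocytic adaptor, by 0.14 ± 0.06 (edgeR, adjusted p = 8.42e-09, 3.76e-07 and 0.0495). Socs16D, of the SOCS family, fell by 0.27 on the log2 scale, BRWD3, a bromodomain protein named as an activator of the pathway in fly cells, by 0.45 and Su(var)2-10, the fly PIAS protein, by 0.46. et, a short receptor that antagonises Domeless, did not pass (adjusted p = 0.334).

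Known or candidate output genes were read from a list of 11, of which 9 were tested. In tumours 6 were higher and 1 lower, where 28.3% of all tested genes were higher and 24.5% lower. The list's median log2 change was 0.96 beside 0.03 for all tested genes. chinmo, a BTB transcription factor of proliferating progenitors, rose from a median of 16.2 CPM in controls to one of 228 CPM in tumours (179 to 334), by 4.10 ± 0.23 (SE; edgeR, adjusted p = 3.39e-09). vir-1, an antiviral-response gene induced through this pathway, rose from 38.0 to 89.1 CPM to 210 to 820 CPM, by 3.27 ± 0.21 (edgeR, adjusted p = 9.88e-09). For both genes the groups did not overlap, which held for 26.5% of all tested genes. Tep2 rose by 0.96 ± 0.15 and lama by 0.60 ± 0.19, while Tep1, a complement-like gene, fell by 3.15 on the log2 scale from a control median of 10.6 CPM to a tumour median of 1.41 CPM. slbo (C/EBP) and TotC (a stress-response gene) also passed, at means of 5.58 and 2.06 CPM in tumours with libraries down to 0.437 and 0 CPM. zfh1 and TotA did not pass (adjusted p = 0.0884 and 0.966). Markers of the fat body, a tissue that also expresses immune genes such as these, summed to 435 to 8300 CPM in controls and to 28.2 to 261 CPM in tumours, with reads for all 6 markers in every library, and their part in the values of Tep1 was not tested.

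Under the Stat92E hairpin the list genes that fell were vir-1, apt, Socs44A and Stam. vir-1 was at 108, 113 and 124 CPM, below every tumour library, where 20.5% of all genes were apart from tumours of the same discs. Its log2 change was -2.66 ± 0.30 (SE; edgeR, adjusted p = 9.78e-05), and apt had a change of -1.05 ± 0.15 (0.000473). Socs44A changed by -0.51 ± 0.11 and Stam by -0.36 ± 0.08. That is 3 of 8 regulators and 1 of 9 output genes lower, and 0 higher, beside 6.78% lower and 6.5% higher among all genes. chinmo had 116 to 199 CPM and did not pass (-0.67 ± 0.28, adjusted p = 0.123). Under the CG6272 hairpin 2 regulators (ken and Stam) and 3 output genes (slbo, lama and vir-1, the last by 1.13 on the log2 scale) were lower, 0 higher, beside 8.92% lower and 5.33% higher among all genes. In sd-titled libraries 3 regulators were lower and 2 higher, and 3 output genes were lower, beside 12% lower and 9.26% higher among all genes. There apt had a change of -1.86 ± 0.13 (edgeR, adjusted p = 9.99e-07) and vir-1 one of -1.66 ± 0.24 (0.000293). Under the tai hairpin Stam alone was lower (1.74% of all genes were), and under the kay hairpin 0 genes of either list passed.

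**Figure D4:**
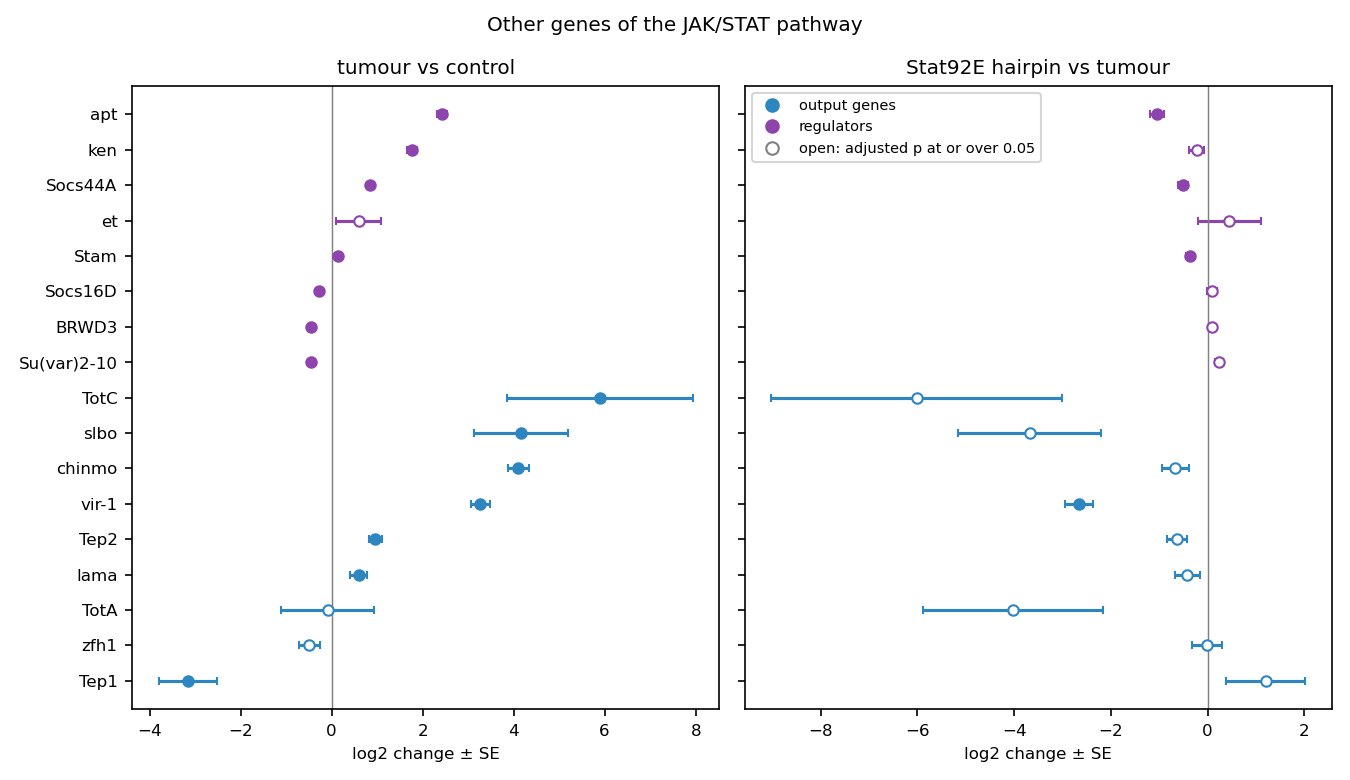
Log2 change with SE of the 17 tested regulators and output genes of the pathway in tumours against controls (left) and under the Stat92E hairpin against tumours (right), from edgeR; filled points passed the adjusted threshold. apt, ken, chinmo and vir-1 are among those that rose in tumours, and vir-1 and apt are among those lower under the Stat92E hairpin.

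The genes whose log2 CPM followed the cytokines most closely over the 27 libraries were named by their Pearson correlation. GstD3, a glutathione transferase, was among the 3 closest for upd1 (0.96), upd2 (0.96), upd3 (0.95) and Socs36E (0.97). It belongs to a family of related genes, and whether their likeness affects its counts was not tested. For upd1 the others were dally, a cell-surface glypican (0.95), and Ifrd1 (0.94). For upd2 they were Best1, a chloride channel (0.96), and Ilp8 (0.96), and for upd3 the matrix metalloproteinase Mmp1 (0.94) and the ETS factor Ets21C (0.94). CG31955 (0.95) and Ets21C (0.95) followed Socs36E. Controls and tumours form separate clusters. Without the controls (21 libraries) the values were 0.80 to 0.93.

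The 3 cytokine genes lie together on the X chromosome, where dome and hop lie as well, while Stat92E is on 3R and Socs36E on 2L. In the RefSeq order of genes, upd3 lies between upd2 and upd1, with 4 other genes in the interval. Of these CG15059, between upd2 and upd3, was in the count table. It had 1 read in all 6 control libraries and 150 reads in the 6 tumour libraries, which ran from 0 to 4.98 CPM. None of the exons of the 7 genes overlapped an exon of another gene in the reference annotation. Coordinates are not given, since the reference is of another genome build than the counts.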

How the data were processed

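RNA sequencing of imaginal discs gave 27 libraries in 15 groups of genotype and disc. The deposited counts of reads per gene were used as they are; per the submitters' processing notes, TopHat2, dm3 and HTSeq were used, while the sources used here do not give versions, annotation release, counting mode or strandedness. The 5 HTSeq summary lines were left out of library sizes. Replicates are independent dissections, per the labels' protocols.

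Genes reaching 1 CPM in 2 or more libraries went into edgeR 4.0.16 (R 4.3.3): TMM scaling, 1 mean per group, quasi-likelihood F-test with robust dispersion on 12 residual degrees of freedom, with p-values adjusted by Benjamini-Hochberg across all 9814 genes and called under 0.05. Hairpin genotypes were compared with tumours, or controls, of the same discs. Groups of 1 library borrow the spread of the rest. Each SE is the size of the log2 change over the square root of its F statistic. Under the alternatives, log2 changes were recomputed for genes past the threshold or at least 1 SE from 0. The scripts were tested on simulated data. Figures used Python 3.11.15 and matplotlib 3.10.9.

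The 7 genes, the 2 pathway lists, the markers and the comparisons were chosen with earlier results of these data known. Named genes are the 7, list members past the threshold in tumours, hairpin targets, and for each cytokine and Socs36E the 3 tested genes with the highest Pearson correlation of log2 CPM (prior count 1); others were named after their values were seen. Ptp61F, TotM, TotX, ap, Mhc, wupA and btl were not tested.

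Replicate numbers within a genotype stand for separate dissections, per the labels, and discs of 1 number were taken as 1 dissection; the labelled days of the sd-titled libraries cross these numbers between discs, so the block is not borne out there. Deviations of same-numbered libraries correlated at a median of 0.161 within a genotype (8 pairs, 5 over 0.1) and -0.0261 between genotypes (58 pairs, 16 over 0.1). The ranges overlapped (-0.0883 to 0.394 and -0.402 to 0.277), so these values do not settle whether a number pairs the discs of a genotype. In tumours the number is also the day of dissection. Alternatives were DESeq2 1.42.0 size factors and its test, limma-voom (limma 3.58.1) without and with the dissection as a random block (correlation 0.442), no count filter, a minimum of 5 CPM, replicate blocks, the compared libraries alone, leg libraries alone for sd-titled comparisons, and each library left out. Reads and sequences were not analysed here.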

Additional observations from a re-analysis of the deposited data

Results flagged for a closer look

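In groups of 4 to 10 libraries, 4 of 28 tested combinations of gene and genotype held a library far from the others. About 1 in 20 would by chance if the libraries of a genotype were alike. Each genotype mixes discs here and the genes vary together, so that rate may not hold. Replicate 2 of the control leg discs was far above the other 5 controls in upd2 (5.21 CPM) and in Socs36E (123 CPM). Replicate 1 of the tumour leg discs was far above the other 5 tumours in dome (333 CPM). Replicate 1 of the eye-antennal discs with the CG6272 hairpin was far above the other 3 libraries of that hairpin in hop (119 CPM). With replicate 2 of the control legs left out, the mean of upd2 over controls was 0.787 ± 0.446 CPM (SD, n = 5), where it was 1.52 ± 1.85 CPM with it (n = 6), and that of Socs36E was 85.8 ± 5.66 CPM instead of 92.0 ± 15.8 CPM.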

How the results depend on the processing

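Of 1853 recomputed values for 125 results on single genes, 1764 kept their direction and side of the threshold, 67 lost and 20 gained a call, and 2 changed sign: the uncalled differences of upd2 and upd3 between the Stat92E and CG6272 hairpins ranged from -0.41 to 0.85 and from -0.15 to 0.87 over single libraries left out, lowest without the eye-antennal Stat92E library. The rises of the cytokines and Socs36E in tumours over discs passed under each alternative. The number of the 7 genes called moved by over 1.5 times as follows. With the dissection as a replicate block it was 3 instead of 1 among control and among tumour discs and 2 instead of 0 for the disc difference of CG6272. With the compared libraries alone it was 4 instead of 7 for leg tumours, 0 instead of 1 among control discs, 1 instead of 3 for the Stat92E hairpin, 1 instead of 2 for that hairpin against CG6272 and 2 instead of 4 for CG6272 in eye-antennal discs. Leg discs alone gave 2 instead of 5 for sd-titled libraries. DESeq2's test gave 1 instead of 0 for the tumour effect among discs, day 11, the tai hairpin and CG6272 in leg discs, 2 instead of 1 among control discs and 5 instead of 3 for the Stat92E hairpin. limma-voom gave 0 instead of 1 among control discs, and with the random replicate block 1 instead of 0 for CG6272 in leg discs. Against CG6272 the Stat92E hairpin had 1 instead of 2 with that block and with no count filter. Over single libraries left out, the number was 0 to 1 among control discs, among tumour discs, for the tai hairpin and for CG6272 in leg discs, 1 in all 7 fits for Stat92E against CG6272, 2 to 4 for CG6272 in eye-antennal discs and 3 to 5 for sd-titled libraries. Smaller moves of that kind were 5 in all 4 fits instead of 7 for leg tumours, 4 to 5 for eye-antennal and wing tumours, 3 to 4 for CG6272 and 2 to 3 for Stat92E. Moves by 1 gene were 3 instead of 2 for Stat92E against CG6272 and 6 instead of 5 for wing tumours (DESeq2), 4 instead of 3 for Stat92E (limma-voom), 6 instead of 7 for tumours over discs and in legs and 4 instead of 5 for sd-titled libraries (random block), and 6 instead of 7 for tumours over discs and 3 instead of 4 for CG6272, without upd2 (compared libraries alone). Wing tumours and sd-titled libraries had 4 with those libraries alone and with no count filter, leg tumours 6 with no filter, and wing tumours 4 with DESeq2 size factors. The replicate number as an additive block changed none of these numbers.

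Counts of all genes called, and with them the shares given beside the 7, also moved by over 1.5 times. With the dissection block they were 931 instead of 322 for the tumour effect among discs, 2290 instead of 1161 among control discs, 1542 instead of 808 among tumour discs, 96 instead of 0 for the disc difference of CG6272 and 464 instead of 97 for that of sd-titled libraries, whose labelled days cross the numbers. With the compared libraries alone they fell to 2135 from 3760 for leg and 1274 from 2980 for wing tumours, 127 for the effect among discs, 103 among tumour discs, 698 from 1398 for CG6272 (295 from 693 in eye-antennal, 12 from 418 in leg discs), 1263 from 2091 for sd-titled libraries, 227 from 1303 for Stat92E, 16 from 267 for tai and 2 from 18 for kay. With limma-voom's random block they were 721 for CG6272, 1145 for sd-titled, 757 for Stat92E, 84 for tai and 151 instead of 480 for Stat92E against CG6272. DESeq2 called 882 for the effect among discs, 633 for tai, 255 for kay, 1029 for Stat92E against CG6272, 1108 and 799 for CG6272 in eye-antennal and leg discs and 150 for their difference. Over single libraries left out they ran from 740 (without replicate 1 of the tumour legs) to 1671 for CG6272, 200 to 438 in its eye-antennal and 102 to 704 in its leg discs, 756 (without replicate 1 of the eye-antennal tumours) to 1466 for Stat92E, 159 to 561 for Stat92E against CG6272, 86 (without its leg library) to 376 for tai, 5 to 9 for kay and 1254 to 2267 for sd-titled libraries. They ran from 1787 to 2039 for eye-antennal (2868 in all) and 1786 to 2807 for wing tumours, 171 to 447 for the effect among discs, 684 to 1190 among control and 472 to 801 among tumour discs, and 396 to 882 for day 11 (1209). The causes were not tested. With 1 or 2 libraries per group and disc, changes of low-count genes such as upd2 and upd3 in controls (131 and 100 reads over 6 libraries) carry wide errors.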
